A study of Rattus norvegicus with 47 samples.

Results

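Kidneys of rats implanted with a cobalt (Co) or an aluminium (Al) pellet were compared by the replicate number that the labels give them, numbers 5 to 8 against numbers 1 to 4 within each metal. These are 16 of the 47 libraries of the series, 4 of each number range in each metal. The series implanted rats with pellets of Co, Al, tantalum (Ta), tungsten (W), lead (Pb) or depleted uranium (DU), each a cylinder 1 mm across and 2 mm long, and took kidney RNA 12 months later. Ta is described as inert and is the reference metal, so every rat used here carried a pellet. Strain, sex, age, the implant site and the part of the kidney taken are not given in the sources used here.

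Each library also carries a running number in its label, which increases with the replicate number within a metal. The labels attach no date, cage, surgery or extraction day to these numbers. The split was chosen because endothelial genes, first of all Kdr, had been seen to be uneven within both metals. All differences between the number ranges in these 16 libraries are therefore given as descriptions. Where genes are counted as called in that split, the call marks a gene past the threshold of a fit, is no independent test of the split, and supports nothing further. Tests are given for whether Co and Al differ in the split and whether the same numbers divide the Ta, DU and Pb kidneys. For endothelial genes, and for any gene that moved with them across kidneys, neither test is free of the choice. Co and Al were both known to be uneven in them, and W was set aside because its uneven Kdr was known. In bulk tissue fewer cells of a type and less RNA per cell cannot be told apart.

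Total gene counts were 22804509 to 31360637 in the 16 libraries. Nephron genes were present in each, with Slc34a1, the main phosphate transporter of the proximal tubule, at 1364 to 4150.4 CPM (read counts scaled to library size) and Aqp2, the vasopressin-regulated water channel of the collecting duct, at 380.5 to 738 CPM. The balance of ribosomal protein genes to genes of giant proteins, given with those genes further on, was higher in all 4 later Co kidneys than in the earlier ones, and its part in the results was tested only as a covariate. Some libraries stood apart within their own range. Al replicate 2 had endothelial values near those of replicates 5 to 8, Co replicate 4 had the lowest Kdr of its range, and Co replicate 8 had tubular values near those of replicates 1 to 4. Among the libraries used for comparison DU replicate 6 stood far from the other DU kidneys, with Egf at 11.5 CPM against 381 to 1198 CPM in the others.

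The endothelium of the kidney lines the glomerular capillaries, which filter plasma, and the capillaries around the tubules, which take up what the tubules reabsorb. Podocytes cover the glomerular capillaries and secrete vascular endothelial growth factor A (VEGF-A), and the endothelial cells carry its main receptor, the tyrosine kinase encoded by Kdr. The angiopoietin receptor Tek and the junction proteins Pecam1 and Cdh5 are further marks of endothelial cells. Endothelial cells and podocytes are known to depend on each other's signals in the glomerulus.

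The sequences just upstream of 4 genes with large differences between the number ranges, 1 from each of 4 groups of genes described further on, are shown, namely Kdr, the podocyte surface gene Podxl, the phosphate transporter gene Slc34a3 and the transferrin gene Tf. They are the 250 bases before the gene start in RefSeq's GRCr8 table, 5′ to 3′ on the gene's strand, whereas the authors counted reads on mRatBN7.2. Capitals mark matches on either strand to the GC box GGGCGG, which reads CCGCCC on the opposite strand, and to the TATA box TATAAA, which reads TTTATA on the opposite strand.
Kdr (chr14:32571813-32572062, + strand): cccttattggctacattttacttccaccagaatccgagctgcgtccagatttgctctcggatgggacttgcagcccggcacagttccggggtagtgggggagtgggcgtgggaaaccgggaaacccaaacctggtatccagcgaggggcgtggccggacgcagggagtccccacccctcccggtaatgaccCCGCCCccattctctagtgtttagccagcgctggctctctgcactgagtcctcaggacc
Podxl (chr4:61149132-61149381, - strand): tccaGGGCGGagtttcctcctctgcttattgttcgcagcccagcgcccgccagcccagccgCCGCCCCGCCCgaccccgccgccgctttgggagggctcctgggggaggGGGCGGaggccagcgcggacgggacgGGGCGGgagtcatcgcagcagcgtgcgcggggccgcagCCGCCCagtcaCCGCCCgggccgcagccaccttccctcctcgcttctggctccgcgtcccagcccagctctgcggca
Slc34a3 (chr3:28447998-28448247, - strand): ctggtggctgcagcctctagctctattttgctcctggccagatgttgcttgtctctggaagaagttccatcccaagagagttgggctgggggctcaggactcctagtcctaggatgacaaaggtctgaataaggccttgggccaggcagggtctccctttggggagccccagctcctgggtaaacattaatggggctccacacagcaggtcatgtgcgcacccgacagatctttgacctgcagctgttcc
Tf (chr8:112695377-112695626, - strand): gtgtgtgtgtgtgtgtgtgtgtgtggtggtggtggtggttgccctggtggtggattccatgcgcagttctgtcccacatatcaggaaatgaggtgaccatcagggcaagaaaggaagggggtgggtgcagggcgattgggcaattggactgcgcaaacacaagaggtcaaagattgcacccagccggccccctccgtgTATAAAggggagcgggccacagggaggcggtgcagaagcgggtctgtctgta
Kdr had 1 GC box match, Podxl 7, overlapping ones included, and Slc34a3 and Tf had 0. Tf had 1 match to the TATA box and the others had 0. Among all 27457 RefSeq promoters of that length, 32.4% held the GC box letters and 13.1% the TATA box letters. Neither motif was thus found in all 4 windows, and a match describes letters only.

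Kdr, the main VEGF-A receptor, was lower in all 4 later-numbered kidneys than in any of the 4 earlier ones in both metals. In Co, replicates 1 to 4 had 37.5, 51.6, 25.0 and 11.3 CPM and replicates 5 to 8 had 3.05, 4.54, 4.89 and 9.50 CPM, where CPM rest on edgeR's TMM factors over all 47 libraries. In Al the values were 35.9, 7.57, 17.9 and 30.6 CPM in replicates 1 to 4 and 3.16, 1.45, 4.40 and 5.98 CPM in replicates 5 to 8. The means (± SD, n = 4) were 31.4 ± 17.2 against 5.50 ± 2.79 CPM in Co and 23.0 ± 12.8 against 3.75 ± 1.92 CPM in Al. With metal as a block, the fitted log2 difference, later minus earlier, was -2.55 ± 0.36 (SE), and -2.49 in Co and -2.61 in Al. The spread among the earlier kidneys was wide in both metals, since Co replicate 4 and Al replicate 2 lay close above the later range.

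Pecam1, an adhesion molecule at endothelial junctions, separated the ranges less cleanly. Its levels in Co were 57.2, 64.8, 38.5 and 22.4 CPM in replicates 1 to 4 and 14.7, 9.96, 8.11 and 23.4 CPM in replicates 5 to 8. In Al they were 43.3, 13.0, 45.8 and 44.7 CPM against 14.8, 10.5, 13.9 and 17.8 CPM. Co replicate 8 lay above Co replicate 4, and Al replicate 2 lay within the later Al range, so the ranges overlapped in both metals. The log2 difference was -1.52 ± 0.27, -1.68 in Co and -1.36 in Al.

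Tek, the receptor of the angiopoietins, did not overlap in either metal. The Co kidneys had 31.6, 35.5, 20.2 and 14.6 CPM in the earlier and 5.85, 5.42, 3.62 and 6.38 CPM in the later range. The Al kidneys had 27.9, 9.04, 25.0 and 29.5 CPM and 7.86, 5.16, 7.61 and 8.88 CPM. Its log2 difference was -1.93 ± 0.24, the steadiest of these 3 genes relative to its error.

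Of 23 endothelial genes tested, 15 were called lower and 0 higher, with a median log2 difference of -0.84 against 0.0063 over all 15274 tested genes. A gene was called when its adjusted p in edgeR's quasi-likelihood test was below 0.05, and 16.1% of all tested genes were called in this contrast, 9.03% lower and 7.06% higher. Since the libraries were chosen on such genes, nothing is read from that excess. Beside the 3 above, the called genes included Ptprb, the phosphatase that restrains Tek signalling (-1.47 ± 0.26), Eng, a TGF-beta co-receptor (-1.45 ± 0.28), and Plvap, the diaphragm protein of fenestrated capillaries (-1.89 ± 0.44). Vwf, the platelet-binding factor stored by endothelial cells of larger vessels, had 0.37 ± 0.22 and was the sole member above 0 in both metals. The other 22 were below 0 in both. Flt1, a VEGF receptor that binds without strong signalling, had -0.54 ± 0.19 and was not called, nor were Cldn5 (-0.30 ± 0.21), Nos3 (-0.68 ± 0.25) and Erg (-0.72 ± 0.34). The summed level of the 23 genes was 447 to 867 CPM in earlier and 297 to 433 CPM in later Co kidneys, and 372 to 751 against 266 to 455 CPM in Al. The count of 15 ranged from 13 to 17 when any 1 of the 16 libraries was left out.

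**Figure D1:**
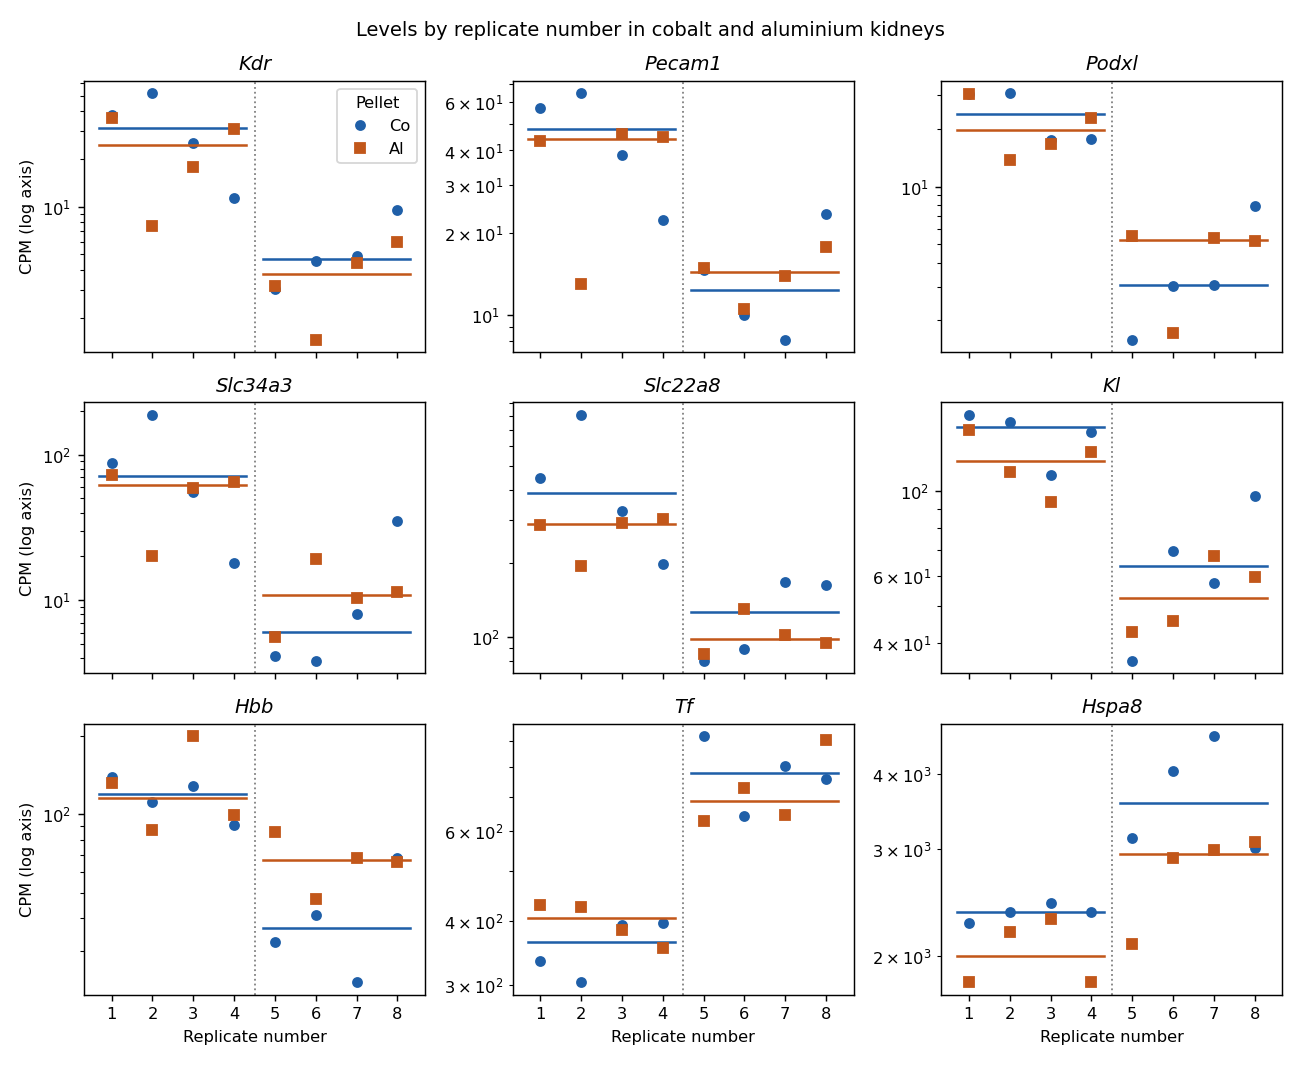
Level in CPM on a log axis of 9 genes against replicate number in Co (circles) and Al (squares) kidneys, with the median of each number range and metal as a line and a dotted line between numbers 4 and 5. Kdr, Podxl, Slc22a8 and Kl sit lower and Tf higher in all 4 later kidneys of both metals, while Pecam1 overlaps.

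The ligand genes had mixed values. Vegfa, the ligand of Kdr, had 150.2, 168, 172 and 171 CPM in earlier and 136.4, 133.6, 130.2 and 148 CPM in later Co kidneys. In Al it had 156, 178, 130.1 and 162 CPM and 151, 97.6, 123.8 and 142.3 CPM, with overlap. Its log2 difference of -0.26 ± 0.09 was called, but not when any 1 of 11 of the 16 libraries was left out. Vegfb (0.10 ± 0.08) and Vegfc (0.02 ± 0.23) were near 0. Nrp1, a VEGF co-receptor, was at -0.87 ± 0.13 and did not overlap in either metal. Flt4, the receptor of lymphatic endothelium, was at -1.44 ± 0.41, and its ligand gene Vegfd was at -2.19 ± 0.60 at 1.78 CPM on average over the 16 kidneys. Of the 10 VEGF and angiopoietin genes 4 were called lower and 0 higher (median -0.79), 1 without Co replicate 2 and 2 without Al replicate 1.

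Podocyte genes were lower in the later kidneys of both metals as well. Podxl, the charged surface protein of podocyte foot processes, had 30.4, 30.6, 17.6 and 17.6 CPM in earlier and 1.59, 3.04, 3.08 and 7.88 CPM in later Co kidneys. The Al values were 30.6, 13.8, 16.6 and 22.7 CPM and 5.51, 1.72, 5.41 and 5.17 CPM. The ranges did not overlap, and the log2 difference was -2.41 ± 0.30. Podxl is also made by endothelial cells.

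Of 14 podocyte genes tested, 8 were called lower and 0 higher (median -1.14, -0.96 in Co and -1.35 in Al), and all 14 were below 0 in both metals. Ptpro, a podocyte phosphatase, was at -1.86 ± 0.28, Clic5, a cytoskeletal protein of foot processes, at -1.69 ± 0.32, and the transcription factor gene Wt1 at -1.42 ± 0.45. The slit diaphragm adapter Cd2ap, made by many cell types, was at -0.14 ± 0.10 and was not called. The summed podocyte level of Co replicates 5 to 8 was 183 to 409 CPM against 342 to 492 CPM in Co replicates 1 to 4. In Al it was 188 to 245 against 376 to 481 CPM, without overlap. The count was 7 to 10 without any 1 library.

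Mural cells and the matrix followed. Of 12 pericyte and smooth muscle genes 8 were called lower and 0 higher (median -0.93). Pdgfrb, the receptor that holds pericytes to capillaries, was at -1.53 ± 0.37, Rgs5, a pericyte regulator of G protein signalling, at -1.66 ± 0.41 and Mylk, the kinase of smooth muscle contraction, at -1.06 ± 0.19. That count was 5 without Al replicate 4, Co replicate 1 or Co replicate 7.

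Of 19 fibroblast and matrix genes 13 were called lower and 0 higher, with a median of -1.35 in Co and -0.67 in Al. The microfibril gene Fbn1 was at -1.93 ± 0.35, the collagen VI genes Col6a1 and Col6a3 were at -1.78 ± 0.44 and -1.78 ± 0.39, and Ccn2, a matricellular growth factor, at -1.09 ± 0.19. Dcn (0.05 ± 0.26), Postn (0.60 ± 0.62) and Tgfb1 (0.13 ± 0.26) were not called. Of 13 basement membrane genes 4 were called lower, among them Hspg2, the heparan sulfate proteoglycan perlecan (-1.10 ± 0.22), and the glomerular collagen IV gene Col4a4 (-0.92 ± 0.20). The widely made chain genes Col4a1 (-0.28 ± 0.23) and Lamc1 (-0.14 ± 0.11) were not.

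**Figure D2:**
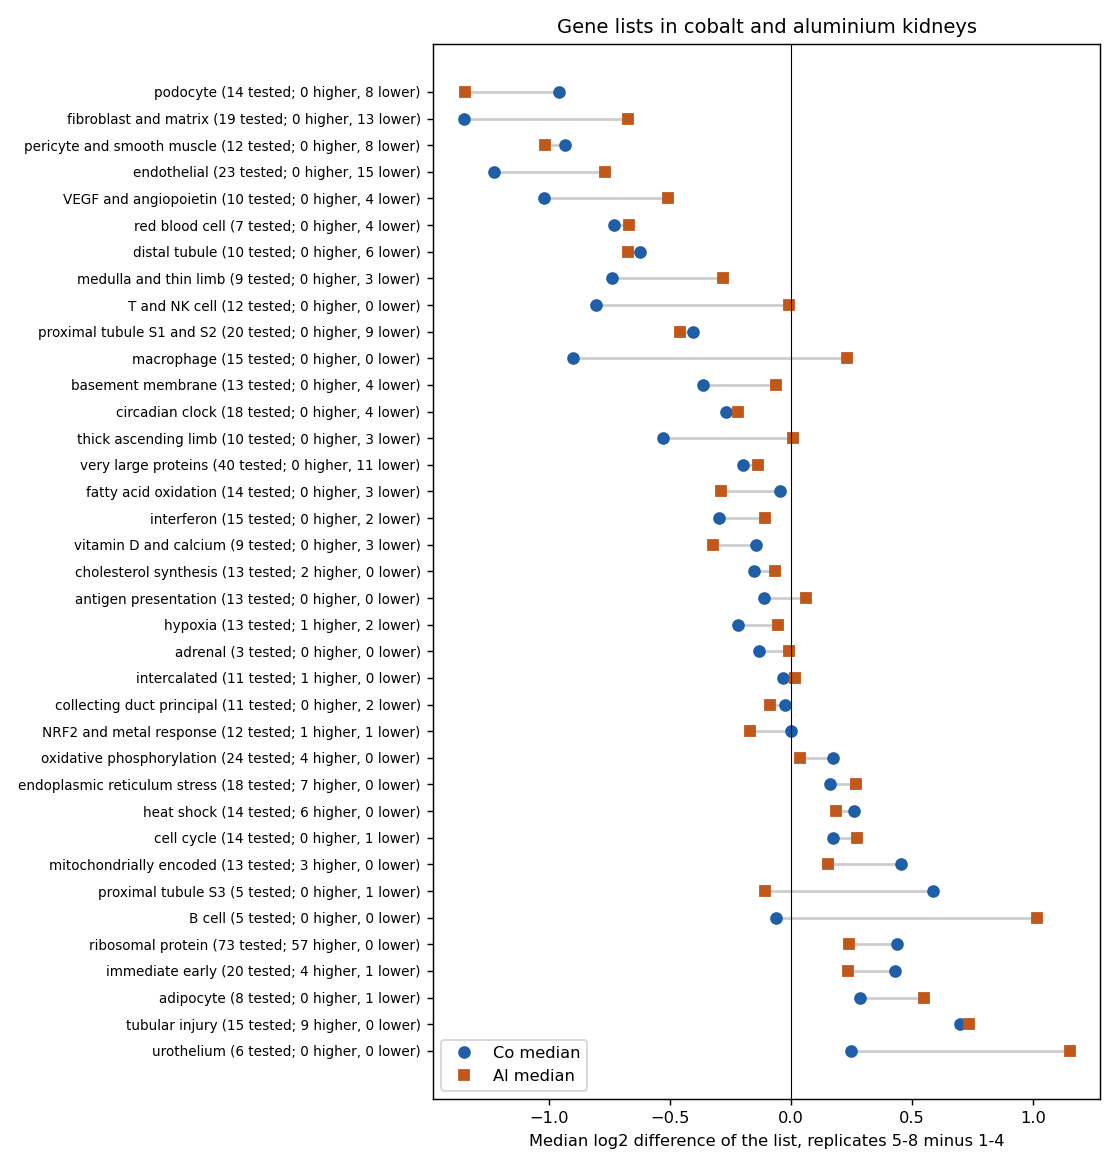
Median log2 difference, replicates 5-8 minus 1-4, of each of 37 gene lists in Co (circles) and Al (squares), with the number of genes tested and called in the block fit beside each name. Podocyte, matrix, mural and endothelial lists lie well below 0 in both metals, tubular injury and ribosomal protein lists lie above 0 in both, and macrophage genes lie at -0.90 in Co and 0.23 in Al.

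In the tubule, transporters of the early proximal segments differed one from another. Slc34a3, which takes up phosphate from the filtrate, had 87.3, 188, 55.6 and 18.1 CPM in earlier and 4.13, 3.82, 8.07 and 34.8 CPM in later Co kidneys. Its Al levels were 72.2, 20.1, 58.8 and 64.5 CPM and 5.62, 19.2, 10.4 and 11.4 CPM. The Al ranges did not overlap, Co replicate 8 lay above Co replicate 4, and the log2 difference was -2.48 ± 0.49. Its relative Slc34a1, which carries most of the phosphate in the rat, was at -0.36 ± 0.12.

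Slc22a8, a basolateral organic anion transporter, had 446, 809, 326 and 199 CPM in earlier and 79.9, 89.4, 167 and 164 CPM in later Co kidneys. Across Al the values were 286, 195, 293 and 305 CPM and 85.6, 130.4, 101.9 and 95.1 CPM. Neither metal overlapped, and the log2 difference was -1.60 ± 0.24. The sodium-proton exchanger gene Slc9a3 (-1.04 ± 0.18) and the dicarboxylate transporter gene Slc13a3 (-1.04 ± 0.18) did not overlap either. Of 20 genes of segments S1 and S2, 9 were called lower and 0 higher (median -0.48). The protein uptake receptors Lrp2 (-0.14 ± 0.16) and Cubn (0.02 ± 0.11), the cystine carrier Slc7a9 (0.03 ± 0.13) and the urate transporter Slc22a12 (0.27 ± 0.12) were not called, so the members did not move as one. Of 5 genes of segment S3 1 was called lower, the monocarboxylate transporter gene Slc5a8 (-0.66 ± 0.21), a call that ended without any 1 of 14 libraries.

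Distal genes were lower too. Slc12a3, the thiazide-sensitive sodium chloride transporter of the distal convoluted tubule, had 1042, 763, 721 and 911 CPM in earlier and 71.2, 437, 171 and 846 CPM in later Co kidneys. Among Al kidneys they were 853, 810.0, 634 and 719 CPM and 201, 188, 383 and 261 CPM. Co replicate 8 was again among the earlier values and the log2 difference was -1.35 ± 0.33. Egf, a growth factor made by distal segments, had 1299, 916, 1026 and 1391 CPM and 338, 510.0, 279 and 684 CPM in Co and 1102, 992, 1000.2 and 985 CPM and 702, 179, 571 and 553 CPM in Al. It did not overlap in either metal (-1.18 ± 0.22). Of 10 distal genes 6 were called lower, including Klhl3, which controls degradation of WNK kinases (-1.34 ± 0.27), and Cnnm2, a magnesium handling gene (-0.55 ± 0.09).

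Elsewhere along the nephron fewer genes were called. In the thick ascending limb 3 of 10 were lower, first Casr, the calcium-sensing receptor (-1.01 ± 0.20), while Umod, its main secreted protein, was at -0.15 ± 0.18. Of 9 medullary genes 3 were lower, 1 without Al replicate 4, among them the osmolyte transporter genes Slc5a3 (-0.99 ± 0.31) and Slc6a6 (-0.58 ± 0.14). Principal cell genes had 2 of 11 lower, Aqp4 (-0.85 ± 0.19) and the sodium channel subunit Scnn1a (-0.54 ± 0.15), 1 without Al replicate 4, and Aqp2 was at 0.12 ± 0.12. Intercalated cell genes had 1 of 11 higher, the proton pump subunit Atp6v1g3 (0.42 ± 0.14), and 0 lower. That count was 0 without any 1 of 8 libraries and 2 without Al replicate 2 or Co replicate 7. Over all tested genes 7.06% were called higher and 9.03% lower, so nothing is read from the counts of 1 or 2 here.

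Some genes of mineral and energy control were lower in the later kidneys without overlap in either metal. This held for 2 of 9 vitamin D and calcium genes and 3 of 14 fatty acid oxidation genes, and for 1.43% of all tested genes. Kl, the klotho co-receptor through which FGF23 acts, had 159, 152, 110.4 and 143.3 CPM in earlier and 35.8, 69.8, 57.6 and 97.3 CPM in later Co kidneys. In Al it had 145, 112, 93.9 and 127.1 CPM and 42.8, 45.8, 67.6 and 59.5 CPM. Its log2 difference was -1.12 ± 0.16, with -1.10 in Co and -1.14 in Al, and no later kidney reached an earlier one of its metal.

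Vdr, the vitamin D receptor, had 36.3, 43.8, 32.2 and 46.9 CPM and 17.9, 19.1, 13.6 and 26.8 CPM in Co and 31.7, 33.8, 30.8 and 33.7 CPM and 13.8, 17.7, 17.6 and 20.3 CPM in Al. It showed the same order with less spread (-0.96 ± 0.12). Of 9 vitamin D and calcium genes 3 were called lower, the calcium pump gene Atp2b4 being the third (-1.24 ± 0.38). The vitamin D degrading enzyme Cyp24a1 was at -0.03 ± 0.22 and S100g, a calcium buffer, at -0.05 ± 0.26. The list median was -0.14, and 3 of the 9 were above 0 in Co and 0 in Al. Over all tested genes 9.03% were called lower, and nothing is read from this count.

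Ppargc1a, a coactivator that drives mitochondrial genes, had 27.1, 34.4, 30.2 and 36.4 CPM and 11.7, 21.8, 9.43 and 17.2 CPM in Co, and 30.8, 27.8, 24.9 and 25.5 CPM and 17.8, 13.4, 12.8 and 19.8 CPM in Al. It did not overlap in either metal (-0.92 ± 0.15). Ppara, the nuclear receptor of fatty acid oxidation (-1.27 ± 0.18), and Cpt1a, which admits long-chain fatty acids to mitochondria (-0.58 ± 0.13), did not overlap either. The oxidation enzymes themselves were closer to 0, with Acadm at 0.09 ± 0.14, Hadha at 0.20 ± 0.08 and Acadvl at 0.09 ± 0.08. Of 14 fatty acid oxidation genes 3 were called lower and 0 higher (median -0.17), against 9.03% lower over all tested genes. Nothing is read from this count.

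Red blood cell genes were lower in the later kidneys. The beta globin gene Hbb had 138.4, 111, 128.2 and 90.9 CPM in earlier and 32.4, 41.1, 22.7 and 68.3 CPM in later Co kidneys. The Al values were 131.3, 87.4, 199 and 99.6 CPM and 85.7, 47.4, 68.0 and 65.4 CPM. Neither metal overlapped, although Al replicate 5 lay close to Al replicate 2 (-1.22 ± 0.21). Alas2, the erythroid enzyme of heme synthesis, was at -0.97 ± 0.24. Of 7 such genes 4 were called lower, and counts are uncertain between the near-identical globin copies. The summed level of the 7 genes was 1237 to 1746 CPM in earlier and 682 to 1478 CPM in later Co kidneys. In Al it was 962 to 2014 and 611 to 977 CPM, so these sums overlapped in both metals. The part of residual blood in the endothelial values was not tested.

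Immune markers were uneven among kidneys of the same range. Of 15 macrophage, 12 T and NK cell and 5 B cell genes tested, 0 were called in either direction by edgeR. With macrophage genes the medians were -0.90 in Co and 0.23 in Al, and 7 of 15 had the same sign in both. The summed macrophage level was 103.6 to 448 CPM in earlier and 72.0 to 306 CPM in later Co kidneys, and 147 to 362 and 119 to 538 CPM in Al, so it overlapped in both. T and NK cell genes summed to 6.26 to 33.4 CPM in later and 16.3 to 53.8 CPM in earlier Co kidneys. Their median was -0.80 in Co and -0.01 in Al. B cell genes summed to 4.40 to 5.66 CPM in earlier and 5.91 to 21.996 CPM in later Al kidneys, without overlap, and to 4.25 to 6.51 and 2.64 to 6.66 CPM in Co.

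Among named genes higher in all 4 later kidneys of both metals, Tf, the iron carrier transferrin, had the largest log2 difference. Tf had 334, 304, 394 and 397 CPM in earlier and 919, 642, 802 and 756 CPM in later Co kidneys. Al kidneys had 430.4, 427, 385 and 355 CPM and 628, 727, 643 and 901 CPM. The groups did not overlap, the spread was small beside the gap, and the log2 difference was 1.00 ± 0.10, 1.14 in Co and 0.87 in Al. Serping1, the inhibitor of complement C1 esterase, had 240.0, 232, 262 and 288 CPM and 512, 417, 482 and 332 CPM in Co and 246, 252, 276 and 245 CPM and 400.2, 308, 331 and 332 CPM in Al. It too separated the ranges in both metals (0.61 ± 0.10).

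The genes with the largest log2 differences that separated the ranges in both metals, chosen by the naming rule, were on the higher side, after Tf, Areg, an EGF receptor ligand (0.99 ± 0.26), Tcp11x2 (0.93 ± 0.17), Rsph10b (0.89 ± 0.17), Clmp, a junction protein (0.86 ± 0.17), Aspm, a spindle pole protein (0.71 ± 0.15), Thpo, the thrombopoietin gene (0.61 ± 0.11), Serping1, Hmgn3 (0.56 ± 0.09), Rras (0.56 ± 0.11), Unc79 (0.54 ± 0.15) and Slc24a5 (0.54 ± 0.10). On the lower side they were, after Kdr, Crb2, a polarity protein of podocytes (-2.50 ± 0.43), Ston1 (-2.45 ± 0.38), Hhip, which binds hedgehog ligands (-2.45 ± 0.40), the olfactory receptor gene Olr1411 (-2.44 ± 0.52), Ptpru (-2.43 ± 0.41), Podxl, the adenylyl cyclase gene Adcy1 (-2.25 ± 0.43), Acot12 (-2.17 ± 0.34), Crispld2 (-2.13 ± 0.48) and Ccbe1 (-2.04 ± 0.38). Ptpru shows the pattern in Co at 42.3, 57.9, 40.4 and 21.5 CPM against 2.30, 2.58, 1.56 and 15.4 CPM and in Al at 39.3, 12.6, 34.2 and 39.0 CPM against 6.87, 4.67, 9.55 and 10.04 CPM. The differences on the lower side were thus larger than those on the higher side.

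Of 15 tubular injury genes 9 were called higher and 0 lower (median 0.76), 5 without Al replicate 1. Krt19, a keratin of simple epithelia that injured tubules make, had 69.9, 40.1, 39.5 and 63.0 CPM and 97.5, 69.3, 73.4 and 96.8 CPM in Co and 37.4, 54.1, 59.999 and 56.6 CPM and 88.9, 105, 69.3 and 70.4 CPM in Al. The Al ranges did not overlap, and Co replicate 6 fell just below Co replicate 1 (0.68 ± 0.14). Krt18 was at 0.66 ± 0.17, the fibrinogen chain gene Fga at 0.76 ± 0.17, Lcn2, the siderophore-binding lipocalin, at 1.65 ± 0.49, and Spp1, osteopontin, at 1.26 ± 0.38. Havcr1, the kidney injury molecule KIM-1, had 1.14 ± 0.42 and was not called. Vcam1, an adhesion molecule also made by endothelium, was the sole member below 0 in both metals (-1.02 ± 0.36).

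Of 14 heat shock genes 6 were called higher and 0 lower, 3 without Al replicate 1. Hspa8, the constitutive HSP70, had 2264, 2367, 2442 and 2361 CPM and 3128, 4034, 4612 and 3013 CPM in Co and 1814, 2190.2, 2307 and 1809.6 CPM and 2095, 2898, 2996 and 3088 CPM in Al. Al replicate 5 lay among the earlier Al kidneys and the log2 difference was 0.56 ± 0.11. Dnaja1, a co-chaperone, was at 0.41 ± 0.09. The stress-induced Hspa1b (0.24 ± 0.24) and Hsph1 (0.05 ± 0.11) were not called.

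Hsp90b1, the HSP90 of the endoplasmic reticulum, had 525, 588, 571 and 544 CPM and 679, 810.3, 717 and 598 CPM in Co and 475, 528, 509 and 481 CPM and 552, 630.2, 614 and 639 CPM in Al. It separated the ranges in both metals by a small step (0.32 ± 0.07). Of 18 endoplasmic reticulum stress genes 7 were called higher and 0 lower, among them the transcription factor gene Atf4 (0.47 ± 0.10) and the disulfide isomerase gene Pdia3 (0.30 ± 0.07). That count was 3 without Al replicate 1 and 4 without Al replicate 4, Al replicate 7, Co replicate 4 or Co replicate 6.

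Of 20 immediate early genes 4 were called higher, Jun (0.69 ± 0.20), Junb (0.52 ± 0.15), Jund (0.37 ± 0.11) and Myc (0.87 ± 0.25), and 1 lower, Klf2, a factor of endothelial cells under flow (-0.50 ± 0.16). Myc was uneven, at 29.2, 15.3, 9.92 and 11.3 CPM and 18.1, 40.3, 40.3 and 31.5 CPM in Co and 19.1, 18.1, 20.4 and 20.7 CPM and 19.7, 62.0, 21.7 and 25.9 CPM in Al. Its call ended without any 1 of 6 libraries, Al replicate 6 among them. The 4 calls fell to 0 without Co replicate 2 and to 2 without Al replicate 6, and rose to 8 without Co replicate 5. The lower call was lost without any 1 of 10 libraries.

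Ribosomal protein genes and genes of giant proteins differed in opposite directions. Of 73 cytosolic ribosomal protein genes 57 were called higher and 0 lower, with a median of 0.44 in Co and 0.24 in Al. This count fell to between 18 and 31 without any 1 of 7 libraries: Al replicates 1, 4 and 6 and Co replicates 2, 3, 4 and 6. Of 40 genes of very large proteins 11 were called lower and 0 higher, 7 without Al replicate 4, and Utrn, the membrane cytoskeleton protein utrophin, had 40.2, 49.2, 35.98 and 36.9 CPM and 21.0, 22.8, 22.3 and 22.8 CPM in Co. In Al, Utrn had 47.2, 35.2, 37.7 and 53.7 CPM and 21.3, 19.7, 30.8 and 27.1 CPM, and neither metal overlapped (-0.83 ± 0.11). The small-protein balance, defined as mean log2 CPM over the 73 ribosomal genes less the mean over the 40 giant-protein genes, was 2.65 ± 0.107 in earlier and 3.47 ± 0.120 in later Co kidneys (SD, n = 4). The Co ranges, 2.55 to 2.77 and 3.35 to 3.62, did not overlap, so in Co this balance and the number range cannot be told apart. In Al it was 2.91 ± 0.436 and 3.36 ± 0.371, with overlap.

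With that balance as a covariate the block fit called 2 genes in place of 2458, Tf at 1.02 ± 0.15 and Errfi1, a feedback inhibitor of EGF receptor signalling, at -1.57 ± 0.24. Kdr was then at -1.68 ± 0.45, Slc34a3 at -2.25 ± 0.77, Podxl at -1.75 ± 0.39 and Hspa8 at 0.38 ± 0.15, each smaller than without the covariate. Slc22a8 (-1.55 ± 0.37), Hbb (-1.17 ± 0.31) and Slc12a3 (-1.25 ± 0.52) moved little, and Rps29, not called in either fit, went from 0.44 to -0.14. Nuclear respiratory chain genes were called higher in 4 of 24. The count was 0 without any 1 of 7 libraries and 1 without Co replicate 3, 4, 5 or 7. The mitochondrially encoded respiratory genes were called higher in 3 of 13, 1 without any 1 of 4 libraries and 9 without Al replicate 8. Over all tested genes 7.06% were called higher, and nothing is read from these 2 counts. Mitochondrial transcripts took 20.3 ± 0.897% of counts in earlier and 24.1 ± 1.72% in later Co kidneys, and 18.8 ± 1.37% and 19.4 ± 2.56% in Al. At least 1 count was found for 15400.0 to 16257 genes in earlier and 14538 to 15281 in later Co kidneys, without overlap, but for 16515 to 17344 and 16581 to 17173 genes in Al.

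Whether the metals agreed was examined gene by gene. In 1 fit of the 16 libraries with a split for each metal, which share the estimate of the spread, the Co split called 1541 genes (10.1% of those tested), 645 higher (4.22%) and 896 lower (5.87%), and the Al split called 4 (0.0262%), 1 higher (0.00655%) and 3 lower (0.0196%). The 4 were Tf, higher, and Ddn, a cytoskeletal gene of podocytes (-2.29 ± 0.32), Gask1b (-1.99 ± 0.31) and Tsku (-1.51 ± 0.25), all lower. Of these 3 were also called in Co, in the same direction. DESeq2 called 174 genes in Al, and the edgeR count there was 31 without Co replicate 8.

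Of the 1541 genes called in Co, 1458 (94.6%) had the same sign in Al, 619 of 645 higher and 839 of 896 lower ones. Over all 15274 tested genes, 11171 had the same sign. Both metals were picked for endothelial genes uneven by number. For genes that moved with those, a shared sign is in part given by the choice. The size differed: genes called lower in Co had a median log2 difference of -1.03 in Co and -0.51 in Al, and those called higher 0.52 and 0.21. Genes picked for being called in Co tend to be larger there. Pearson's r of the Co and Al differences across all tested genes was 0.393 (Spearman's rho 0.515), where genes share libraries and are not independent replicates. Of the 2458 genes called in the block fit, 1, the ribosomal protein gene Rpl38, had opposite signs, 1.08 in Co and -0.01 in Al. That fit calls a gene on its difference averaged over both metals, so few opposite signs follow from the selection. Agreement is not read from that count.

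Both metals kept all 4 later kidneys below all 4 earlier ones for 218 genes (1.43% of those tested) and above them for 79 (0.517%). For 1 gene (0.00655%), Lmbr1l, both metals separated the ranges in opposite directions, -0.31 in Co and 0.17 in Al. Within Co 1232 genes (8.07%) lay wholly lower and 1016 (6.65%) wholly higher. Within Al 665 (4.35%) and 434 (2.84%) did.

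**Figure D3:**
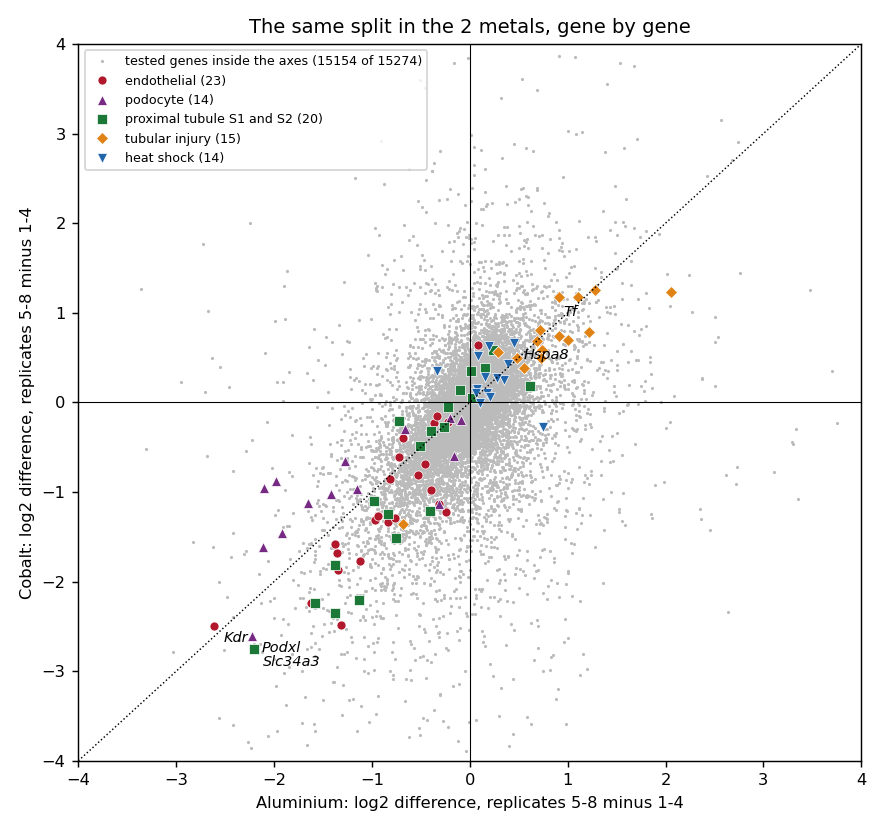
Log2 difference of each gene, replicates 5-8 minus 1-4, in Co (vertical axis) against Al (horizontal axis), with 5 gene lists coloured and a dotted line of equality; 15154 of 15274 tested genes lie inside the axes. All endothelial genes but Vwf, all podocyte genes and the called proximal tubule genes lie below 0 in both metals, and all injury genes but Vcam1 lie above 0 in both.

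The test of the difference between metals, the metal-by-range interaction of edgeR, called 0 of 15274 genes (0%), with 683 below an unadjusted p of 0.05. DESeq2 called 16 genes and limma voom 0. The difference, Co minus Al, was 0.11 ± 0.71 for Kdr, -0.33 ± 0.54 for Pecam1, -0.39 ± 0.59 for Podxl, -0.56 ± 0.96 for Slc34a3 and 0.27 ± 0.20 for Tf (log2 ± SE). Both metals were picked for uneven endothelial genes. A small difference in Kdr, Pecam1 and genes that moved with them is therefore in part given by the choice. With errors of this size a difference between the metals may have gone undetected, and without 1 library the value ran from -0.29 to 0.46 for Kdr and from -1.81 to 0.14 for Slc34a3. The smallest p of the interaction belonged to Mmp17, a membrane-anchored metalloproteinase. It had 2.10, 2.24, 1.92 and 1.39 CPM in earlier Co kidneys and no count in the 4 later ones, where 0 counts allow up to 0.0344 CPM over those 4 libraries (3 counts, counting error only), so that its mean was at least 55.6-fold lower. Its Al levels were 1.37, 0.398, 0.953 and 2.27 CPM and 0.772, 1.22, 0.888 and 0.849 CPM, and the adjusted p of the interaction was 0.0966 (edgeR).

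Of genes with a mean of at least 1 CPM, Rps29 came next, a small ribosomal protein whose copies make its counts uncertain. It had 289.9, 263, 228 and 215 CPM and 506, 433, 528 and 578 CPM in Co, without overlap, and 380.1, 495, 572 and 312 CPM and 373, 408, 441 and 328 CPM in Al, with overlap (Co minus Al 1.23 ± 0.23, edgeR adjusted p = 0.273). Rpl38 followed (1.09 ± 0.23, edgeR adjusted p = 0.409). Atp5mk (0.81 ± 0.18), Ndufa3 (0.91 ± 0.21) and Atp5me (0.73 ± 0.17), which encode small subunits of ATP synthase and complex I, and Pgap4 (-1.09 ± 0.24), of GPI anchor maturation, had adjusted p-values of 0.526 to 0.528 (edgeR). The 3 subunit genes were higher in all 4 later Co kidneys and overlapped in Al. In these the metals differed in value without passing the test.

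The same numbers were then read in 3 of the other metals, without W, whose uneven Kdr was known. For endothelial genes, and for any gene that moved with them in W, the outcome is therefore not free of that choice. In the 23 kidneys with Ta, DU or Pb pellets, replicates 5 to 8 (5 to 7 in Pb) against 1 to 4, edgeR called 0 of 16684 genes (0%), with 524 below an unadjusted p of 0.05, and DESeq2 and limma voom also called 0. Kdr was at 35.7 to 47.3 CPM in earlier and 35.5 to 45.9 CPM in later Ta kidneys. It was at 20.6 to 46.4 and 27.1 to 52.9 CPM in DU and at 1.68 to 4.71 and 1.89 to 5.22 CPM in Pb. The ranges overlapped within each of these metals, and the mean log2 difference over the 3 was 0.18 ± 0.24 (edgeR adjusted p = 1.00). Tek (0.30 ± 0.17), Podxl (0.09 ± 0.23), Slc34a3 (-0.08 ± 0.39) and Tf (0.25 ± 0.27) likewise had adjusted p-values of 1.00. All 7 Pb kidneys had Kdr in the range of the later Co and Al kidneys, whatever their number. A mean over 3 metals can hide differences within a single metal. Within Pb, Tek, Podxl and Slc34a3 overlapped. Tf did not, at 703 to 1114 CPM in earlier and 453 to 676 CPM in later Pb kidneys, the reverse of Co and Al. Krt19, Hsp90b1 and Ppargc1a were also reversed in Pb without overlap. The split within Pb alone was not tested.

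The split of Co and Al differed from that of Ta, DU and Pb, in a fit of all 47 libraries, for 1325 of 16684 genes (7.94%). By comparison 979 were lower (5.87%) and 346 higher (2.07%), whichever side moved. The Co and Al side of this comparison is the split that was chosen for its uneven endothelial genes, so these counts and the values below are descriptions and no independent test. The difference was -2.74 ± 0.37 for Kdr, -2.24 ± 0.26 for Tek, -2.52 ± 0.36 for Podxl and -1.07 ± 0.27 for Vdr, and -0.27 ± 0.19 for Vegfa. For Tf it was 0.75 ± 0.41 and not called with all libraries, and 1.403 and called without DU replicate 6, which had 3928 CPM. Of the 22 genes given by library, Ptpru aside, 14 were called in this comparison, and 13 stayed called without any 1 of 39 libraries. Kl lost its call without any 1 of 29 of them.

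W kidneys, whose uneven Kdr was known when the split was chosen, are only described. Tek was at 22.4, 35.3, 43.4 and 29.6 CPM in W replicates 1 to 4 and 6.39, 8.71, 7.71 and 7.36 CPM in W replicates 5 to 8, and Podxl at 22.9, 16.7, 38.3 and 24.2 and 9.89, 11.9, 5.40 and 6.75 CPM. Tf was at 339, 562, 343 and 331 CPM and 546, 800.0, 832 and 703 CPM, with overlap through W replicates 2 and 5. The mean log2 CPM of the endothelial genes was 4.56 ± 0.230 and 3.52 ± 0.238 in W (SD, n = 4), against 4.39 ± 0.462 and 3.18 ± 0.502 in Co and 4.32 ± 0.522 and 3.51 ± 0.364 in Al. It was 4.64 ± 0.200 and 4.66 ± 0.177 in Ta and 4.64 ± 0.166 and 4.93 ± 0.113 in DU. The small-protein balance of W was 2.14 to 2.50 in earlier and 2.71 to 3.03 in later kidneys, again without overlap.

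**Figure D4:**
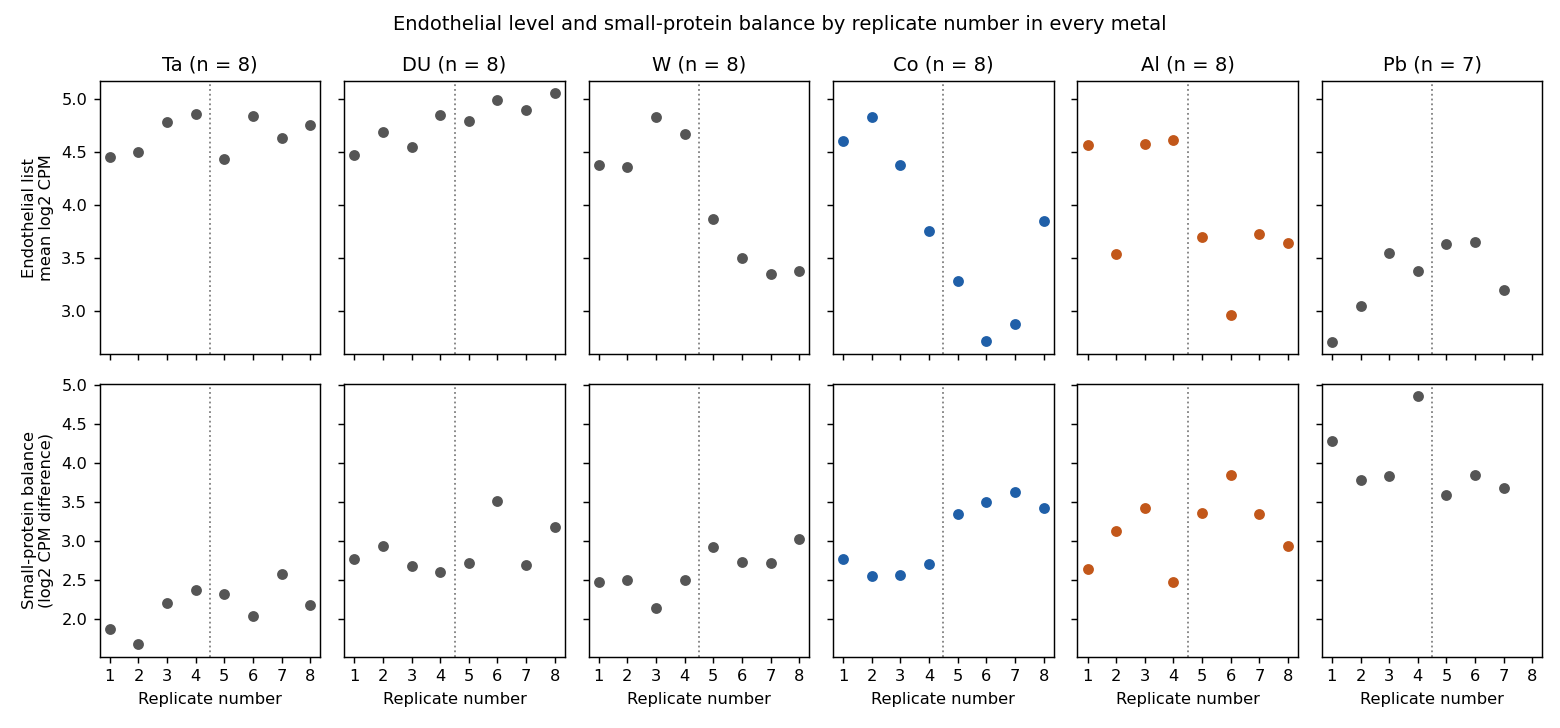
Mean log2 CPM of the 23 endothelial genes (upper row) and the small-protein balance (lower row, defined in the text) against replicate number in each metal, with a dotted line between numbers 4 and 5. The endothelial mean is lower after number 4 in all W kidneys and in Co and Al but for Co replicates 4 and 8 and Al replicate 2, which overlap; it is 4.43 to 5.05 in Ta and DU and 2.71 to 3.65 in Pb.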

How the data were processed

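Kidney RNA was sequenced in 47 rats, per the labels, and the 16 Co and Al libraries were grouped by metal and replicate number. The deposited values are whole-number read counts per gene in 1 table. The submitters' processing notes name STAR 2.7.2a, Subread 1.6.4 with featureCounts and the build mRatBN7.2; strand setting, annotation and treatment of reads with several matches are not given in the sources used here. Of 22525 genes, 15274 passed edgeR's expression filter in the 16 libraries and 16684 in all 47. A further 29 lines were left out for lack of a gene name or of complete counts, among them those of 5 genes whose lines are broken. The series text assigns rats to metals, so replicates were read as separate rats; whether they shared a cage, surgery day or RNA preparation is not given in the sources used here.

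Differences, later minus earlier numbers, came from edgeR 4.0.16 (R 4.3.3, quasi-likelihood test, TMM scaling, metal as a block, Benjamini-Hochberg adjustment over all tested genes, threshold 0.05). The metal-by-range interaction and the split of each metal came from 1 fit of the 16 libraries with a split for each metal, and a fit of 47 libraries used the same test. Alternatives were other scaling, filters, DESeq2 1.42.0, limma 3.58.1 voom with quality weights, the small-protein balance as a covariate, 1 fit of all libraries, a replicate block and each library left out; leaving out Ta, DU and Pb libraries, and list counts without each library, were added after seeing the data. The fits were tested on simulated data.

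The members, the split and the 38 gene lists were chosen with earlier results of these data known. Genes were named by rule: Kdr, Pecam1 and Slc34a3, up to 12 higher and 12 lower called genes of largest difference without overlap in both metals and a mean of at least 1 CPM, up to 4 of each list by smallest p, and 6 by smallest interaction p. Symbols ending in l and a number were passed over as provisional, which also passed over Rpl38. Rpl38, Plvap, Lcn2, Spp1, Havcr1, Errfi1, Lmbr1l, Ddn, Gask1b, Tsku and the list members given as not called were chosen after their values were seen. Some genes that the rule names are not reported here. Promoters are RefSeq's for GRCr8.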

Additional observations from a re-analysis of the deposited data

Results flagged for a closer look

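For 26 measures, each read in 4 groups of 4 libraries, 8 of the groups held a library far from the other 3 by Dixon's criterion, and chance gives about 1 in 20 such groups. Co replicate 8 was high among the later Co kidneys for Slc34a3, at 34.8 CPM with the next at 8.07 CPM. Al replicate 2 was low among the earlier Al kidneys for Pecam1, at 13.0 CPM with the next at 43.3 CPM, for Slc22a8, at 195 CPM with the next at 286 CPM, and for the endothelial mean, at 3.54 log2 CPM with the next at 4.56. Al replicate 1 was high for Egf, at 1102 CPM with the next at 1000.2 CPM. Among the later Al kidneys, replicate 6 was low for Podxl, at 1.72 CPM with the next at 5.17 CPM, and for the endothelial mean, at 2.96 log2 CPM with the next at 3.64. The same library was high for Myc, at 62.0 CPM with the next at 25.9 CPM.

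The split in Co and Al differed from that in Ta, DU and Pb for 979 genes that were lower and 346 that were higher by comparison (edgeR, 47 libraries). Since the Co and Al split was chosen for uneven endothelial genes, these differences are no independent test. Of the genes given by library, the difference of the log2 splits was -2.74 for Kdr, -1.70 for Pecam1, -2.24 for Tek and -2.52 for Podxl. It was -2.41 for Slc34a3, -1.19 for Kl, -1.07 for Vdr, -1.01 for Ppargc1a, -1.29 for Hbb and -0.82 for Utrn. Krt19 (1.05), Hspa8 (0.58) and Hsp90b1 (0.38) were higher by comparison. The fitted value for Mmp17, -4.50, depends on the prior count, since the later Co kidneys had no count.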

How the results depend on the processing

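The 2458 calls of the split became 3808 with limma voom and 2 with the balance entered as covariate, and 1382 to 2833 without 1 library (1382 without Al replicate 4, 1510 without Al replicate 1, 1521 without Co replicate 2). The interaction had 0 calls, 16 with DESeq2, 2 in 1 fit of all libraries (Mmp17 and Npas1), and 0 to 1 without 1 library (Lpar1, without Co replicate 7). The Co split (1541) had 2415 with DESeq2, 2608 with voom, 0 with the covariate (1016 below an unadjusted p of 0.05), and 451 to 2704 without 1 library. These were 451, 677, 799, 833 and 988 without Co replicates 2, 6, 1, 7 and 3, and 2704 without Co replicate 8. The Al split (4) had 174 with DESeq2, 766 with voom, 0 with the covariate (481 unadjusted), 31 in 1 fit of all libraries, and 0 to 31 without 1 library, 31 without Co replicate 8 and 0 without Al replicates 1, 3, 4, 6 or 8. The difference from Ta, DU and Pb (1325) had 2807 with voom, about 1.4e+02 with the covariate, and 771 to 1846 without 1 library (771 without Al replicate 4, 872 without Al replicate 1). Ta, DU and Pb had 0 calls under every alternative run, with 405 to 906 genes at an unadjusted p below 0.05. The cause of these changes was not tested. With the replicate block the interaction had 0 calls (620 unadjusted) and the split 2624. Same-numbered Co and Al kidneys correlated at -0.264 to 0.257, 1 of 8 pairs above 0.1 and 1 Co library best with its own number, so no pairing by number was seen. The mean of each metal and range was subtracted beforehand, so an effect shared by a whole range could not show. No called difference of a named gene reversed, while uncalled ones changed sign in 6 values without 1 library and 8 with the covariate, Rps29 among them; without 1 library 2521 values kept direction and side of the threshold and 224 lost their call, and under other settings 1193 and 146.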

Other observations

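Of 18 clock genes 4 were called lower and 0 higher in the later kidneys. They were Clock (-1.16 ± 0.20), Wee1 (-0.58 ± 0.15), Npas2 (-0.77 ± 0.21) and Nr1d2 (-0.54 ± 0.17), these 4 being below 0 in both metals. The list median was -0.25, and 5 of the 18 genes were above 0 in each metal. Over all tested genes 9.03% were called lower, and nothing is read from this count. The times at which kidneys were taken are not given in the sources used here. In the very large protein list called genes beside Utrn included Lrba (-0.61 ± 0.10), Ank2 (-1.26 ± 0.25), Nbea (-0.73 ± 0.16) and Lrp1, an endocytic receptor (-1.33 ± 0.30).

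Of 12 NRF2 and metal response genes 1 was called higher, the peroxidase gene Prdx1 (0.44 ± 0.10), and 1 lower, the metallothionein gene Mt1 (-0.59 ± 0.20), a call lost without any 1 of 12 libraries. Of 13 hypoxia genes Ldha (0.22 ± 0.07) was called higher, a call lost without any 1 of 8 libraries, and Pfkfb3 (-0.82 ± 0.25) and Ndrg1 (-0.47 ± 0.16) lower, 2 lower calls that fell to 0 or 1 without any 1 of 13 libraries. Of 15 interferon genes 2 were called lower, Ifit2 (-1.30 ± 0.40) and Rsad2 (-0.91 ± 0.30), 4 without Al replicate 2 and 0 or 1 without any 1 of 11 others. Of 13 antigen presentation genes 0 were called. Over all tested genes 7.06% were called higher and 9.03% lower. Nothing about the lists is read from the small counts here and in the next paragraph.

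Of 13 cholesterol synthesis genes 2 were called higher, Sqle (0.47 ± 0.09) and Fdft1 (0.36 ± 0.10), 1 without any 1 of 5 libraries. Of 14 cell cycle genes 1 was called lower, the inhibitor gene Cdkn1a (-0.75 ± 0.21), and not without Al replicate 4. Of 8 adipocyte genes Lpl, lipoprotein lipase, was called lower (-0.47 ± 0.14), a call lost without any 1 of 6 libraries. None of 3 adrenal or 6 urothelial genes was called, with urothelial medians of 0.25 in Co and 1.15 in Al. Of 3 tested sex chromosome genes Eif2s3y was called higher (0.28 ± 0.07).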
